A study of Mus musculus with 6 samples.

Results

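The comparison described here is that of 2 RNA-seq libraries labelled Kir2.1 with 2 libraries labelled control. Its members are the 10978 genes that reached 1 CPM (counts per 1000000 counts of the library) in at least 2 of these 4 libraries, of 55573 genes in the deposited count table. Levels are given as CPM of the scaled library, that is, of the total after TMM scaling. The same rule over all 6 libraries of the series gave 12275 genes. All cells came from the olfactory bulbs of male C57BL/6 mice, 3 months old, killed 9 days after a lentivirus was injected into the rostral migratory stream (RMS) of both hemispheres. The Kir2.1 virus carried mouse Kir2.1 joined to Twitch-2B by a self-cleaving peptide, and the control virus carried Twitch-2B joined in the same way to H2B-mCherry. The remaining 2 libraries, labelled Kv1.2, carried a human voltage-gated potassium channel with Twitch-2B and are set beside the comparison. Twitch-2B, a fluorescent calcium indicator, was thus shared by all groups, whereas the nuclear mCherry was present in the control only. Cells were sorted on Twitch-2B fluorescence, and each library pooled the cells of 2 mice. The vectors were of the FUGW family, whose ubiquitin promoter is active in most cell types, so neither the virus nor the sort selected neurons by promoter.

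Kir2.1, encoded by Kcnj2, is an inwardly rectifying potassium channel that holds the resting membrane potential close to the potassium equilibrium and so makes a neuron harder to excite. Cells born in the adult subventricular zone migrate through the RMS to the olfactory bulb and mature there into GABAergic interneurons. During that time they express doublecortin (Dcx) and Dlx transcription factors, and later glutamic acid decarboxylase and synaptic proteins. Microglia, the resident macrophages of the brain, populate the same tissue, engulf dying newborn cells and are known for high levels of Cst3, P2ry12 and Cx3cr1. They carry MHC molecules, Fc receptors, complement proteins and a large set of lysosomal enzymes.

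The Kir2.1-labelled libraries held 8871595 and 11338928 counts and the control libraries 9943973 and 9450063. In both Kir2.1-labelled libraries, and in all others except control replicate 2, the gene with most counts was Cst3, a cysteine protease inhibitor of microglia. All 10 markers on the microglia list exceeded 10 CPM in each of the 6 libraries, and their summed level was 21784 and 46815 CPM in the Kir2.1-labelled libraries, 35032 and 37515 CPM in the Kv1.2 libraries and 22994 and 2351 CPM in the control libraries. Control replicate 2 thus had the lowest microglia signal of the 6. Of the 12 neuroblast markers only 5 passed the minimum, and their list summed to 1.66 and 0.539 CPM in the Kir2.1-labelled libraries, 0.245 and 46.8 CPM in the Kv1.2 libraries and 209 and 273 CPM in the control libraries. The defining marker Dcx was at 0 counts in both Kir2.1-labelled libraries. By these markers the Kir2.1-labelled libraries went against the label of adult-born neurons, and so did the Kv1.2 libraries. In both control libraries, too, the microglia sum exceeded the neuroblast sum. Mitochondrially encoded genes took 1.89% and 1.48% of the counts in the Kir2.1-labelled libraries, 1.48% and 1.597% in the Kv1.2 libraries, and 10.9% and 22.9% in the control libraries. Hemoglobin and other erythroid genes summed to 697 and 734 CPM in the Kir2.1-labelled libraries, 15.3 and 223 CPM in the Kv1.2 libraries and 13.97 and 1361 CPM in the control libraries. In bulk libraries such as these, fewer cells of a type and less RNA per cell cannot be told apart.

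Kcnj2 itself, on chromosome 11 from 111066164 to 111076821 (GRCm38), is the gene whose coding sequence the virus carried, and its level checks the labels. It stood at 5.59 and 28.03 CPM (64 and 312 counts) in the Kir2.1-labelled libraries, against 8.16 and 10.5 CPM (87 and 89 counts) in the control libraries. Replicate 1 therefore lay below both control libraries and replicate 2 above both, and the groups overlapped. Means were 16.8 ± 15.9 CPM against 9.34 ± 1.68 CPM (SD, n = 2 libraries each). The fitted log2 fold change was 0.85 with a standard error of 2.35, and the exact permutation test over the 4 libraries gave p = 1, where 0.333 is the smallest p that 2 against 2 can give. In the Kv1.2 libraries Kcnj2 was at 18.1 and 0.0845 CPM. Whether the viral coding sequence lies in the part of Kcnj2 that was counted was not tested. Since these counts of the targeted gene do not separate the libraries, they are called Kir2.1-labelled libraries throughout, and each direction given below is one between labels.

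Over all 10978 genes, none passed an adjusted p under 0.05 in edgeR's quasi-likelihood test (0.0% of the genes, smallest adjusted p = 0.293). At an unadjusted p under 0.05, 409 genes were higher in the Kir2.1-labelled libraries (3.73%) and 820 were lower (7.47%), 1229 in all. About 549 would be expected by chance, but that number does not allow for a minimum set on the same 4 libraries. A minimum of 1 CPM in 3 of the 4 cannot be passed through 1 group alone. It tested 7898 genes, with 155 higher and 295 lower. Of the 10978 genes, both Kir2.1-labelled libraries lay above both control libraries at 2294 (20.9%) and below both at 2505 (22.8%). The remaining 6179 genes overlapped between the groups. The median log2 fold change over all genes was 0.07 and the mean -0.25. Because no gene passed the adjusted threshold, the genes below are described as higher or lower in both libraries, with their values. The 4 percentages above are the background for counts over all tested members of a gene group. The 10978 genes include 976 that reached the minimum in both control libraries and neither Kir2.1-labelled library, which could only be lower. For 442 genes the reverse held, and these could only be higher. Of the other 9560 genes, 1854 were higher and 1530 lower. Where such members are set apart below, these counts are the background for the members that remain. The genes at an unadjusted p under 0.05 had extreme folds, with a median log2 fold change of 6.57 for the higher and -6.98 for the lower ones, and no gene with a log2 fold change smaller than 1.48 upward or 1.41 downward was among them. DESeq2 on the same counts called 907 genes at an adjusted p under 0.05 and edgeR's likelihood ratio test called 432.

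Both directions depended on single libraries. Without Kir2.1 replicate 1 the unadjusted calls were 104 higher and 700 lower, and without Kir2.1 replicate 2 they were 72 and 381. Without control replicate 1 they were 782 higher and 355 lower, and without control replicate 2 they were 431 and 139. Leaving out a control library removed from the fit each gene that was under 1 CPM in both Kir2.1-labelled libraries, because such a gene could no longer reach 1 CPM in 2 of the remaining libraries. Of the 2505 genes lower in both Kir2.1-labelled libraries, control replicate 2 was the higher of the control libraries at 63.6%, compared with 51.5% of all genes.

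**Figure D1:**
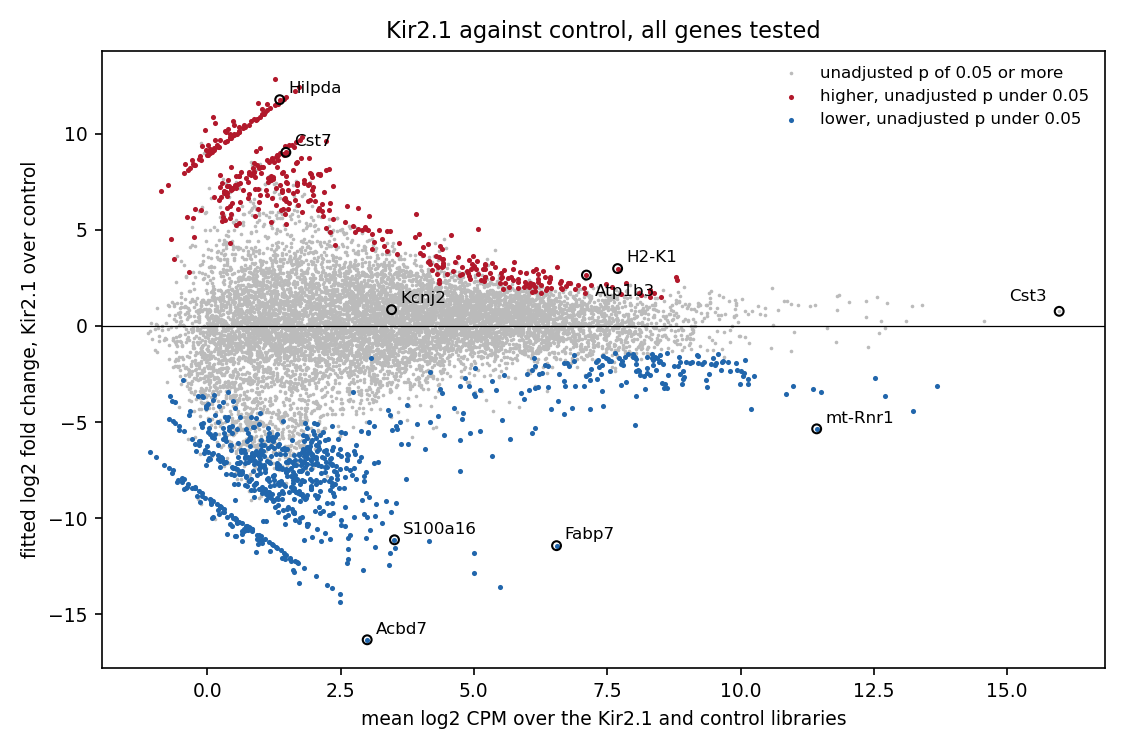
Fitted log2 fold change of each of the 10978 genes (y axis, Kir2.1-labelled over control libraries) against its mean log2 CPM over the 4 libraries (x axis), with a prior count of 2. Red and blue points mark the 409 higher and 820 lower genes at an unadjusted p under 0.05, and Kcnj2 lies near the line at 0. The straight diagonal rows at the left are genes with 0 counts in both libraries of a group. Their fitted fold depends on the prior count of the fit, a separate setting from that of the x axis.

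The 12 genes with the smallest p among those higher in both Kir2.1-labelled libraries included Cst7 of myeloid cells, the interferon-induced Gbp2 and the class I genes H2-K1 and H2-Q6. Of the 12, all but H2-K1 and Taz were under 1 CPM in both control libraries. These passed the minimum through the Kir2.1-labelled libraries alone, so they could only be higher. Cst7, which encodes cystatin F, an inhibitor of lysosomal cathepsins in myeloid cells, stood at 24.5 and 43.9 CPM in the Kir2.1-labelled libraries against 0 and 0.118 CPM in the control libraries. With 1 count over both control libraries, this was a ratio of 651-fold (95% counting interval 117 to 25764). Cst7 was higher still in the Kv1.2 libraries, at 404 and 349.98 CPM. Gbp2, an interferon-induced guanylate-binding protein, had 52.96 and 46.4 CPM against 0.281 and 0.118 CPM in the control libraries, a log2 fold change 7.85, standard error 1.302. Both genes were near 0 in both control libraries and above 20 CPM in both Kir2.1-labelled libraries.

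H2-K1, a classical MHC class I heavy chain, had the most counts of the 12 higher genes with the smallest p, at 511 and 687 CPM in the Kir2.1-labelled libraries and 97.5 and 53.7 CPM in the control libraries (log2 fold change 2.99, standard error 0.596). The groups were well apart. H2-Q6, a nonclassical class I gene, had 27.7 and 94.1 CPM against 0.469 and 0 CPM in the control libraries, but the H2-Q genes are near-identical copies whose reads the counting could have split, so its value is uncertain. Hilpda, a lipid-droplet protein, had 22.6 and 56.9 CPM in the Kir2.1-labelled libraries and 0 counts in both control libraries, which makes it at least 252-fold higher. Arrdc1, an arrestin-related adaptor, had 67.03 and 104 CPM against 0.188 and 0 CPM, and Slc25a45, a mitochondrial carrier, had 33.3 and 50.1 CPM against 0 and 0.118 CPM. Taz, the cardiolipin transacylase tafazzin, was expressed in all libraries, at 108 and 114 CPM in the Kir2.1-labelled and 10.3 and 7.57 CPM in the control libraries (log2 fold change 3.63, standard error 0.82). The zinc finger gene Zfp119a had 33.3 and 59.4 CPM against 0.0938 and 0 CPM, and the antisense transcript Nr6a1os had 37.3 and 74.4 CPM against 0.0938 and 0 CPM. Zmynd15 had 27.3 and 33.2 CPM against 0.0938 and 0.237 CPM and shares exon bases with the neighbouring chemokine gene Cxcl16, so that reads without strand cannot be assigned to either. Among other genes named here, P2ry12, Lamp1, Enho, Top2b, Il18bp, Pno1, mt-Co1, mt-Nd5, Gbp2, Dlg2, Kcnh7, Slc1a2, Cox6c, Ndufs6, Psmd9, Cd74, Nrxn3, Dlx6os1, Pcdh7, Rpl31, Pdia4, Pcp4, Gpr84 and Lsm14a also share exon bases with a neighbouring gene, so their counts are uncertain in the same way.

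**Figure D2:**
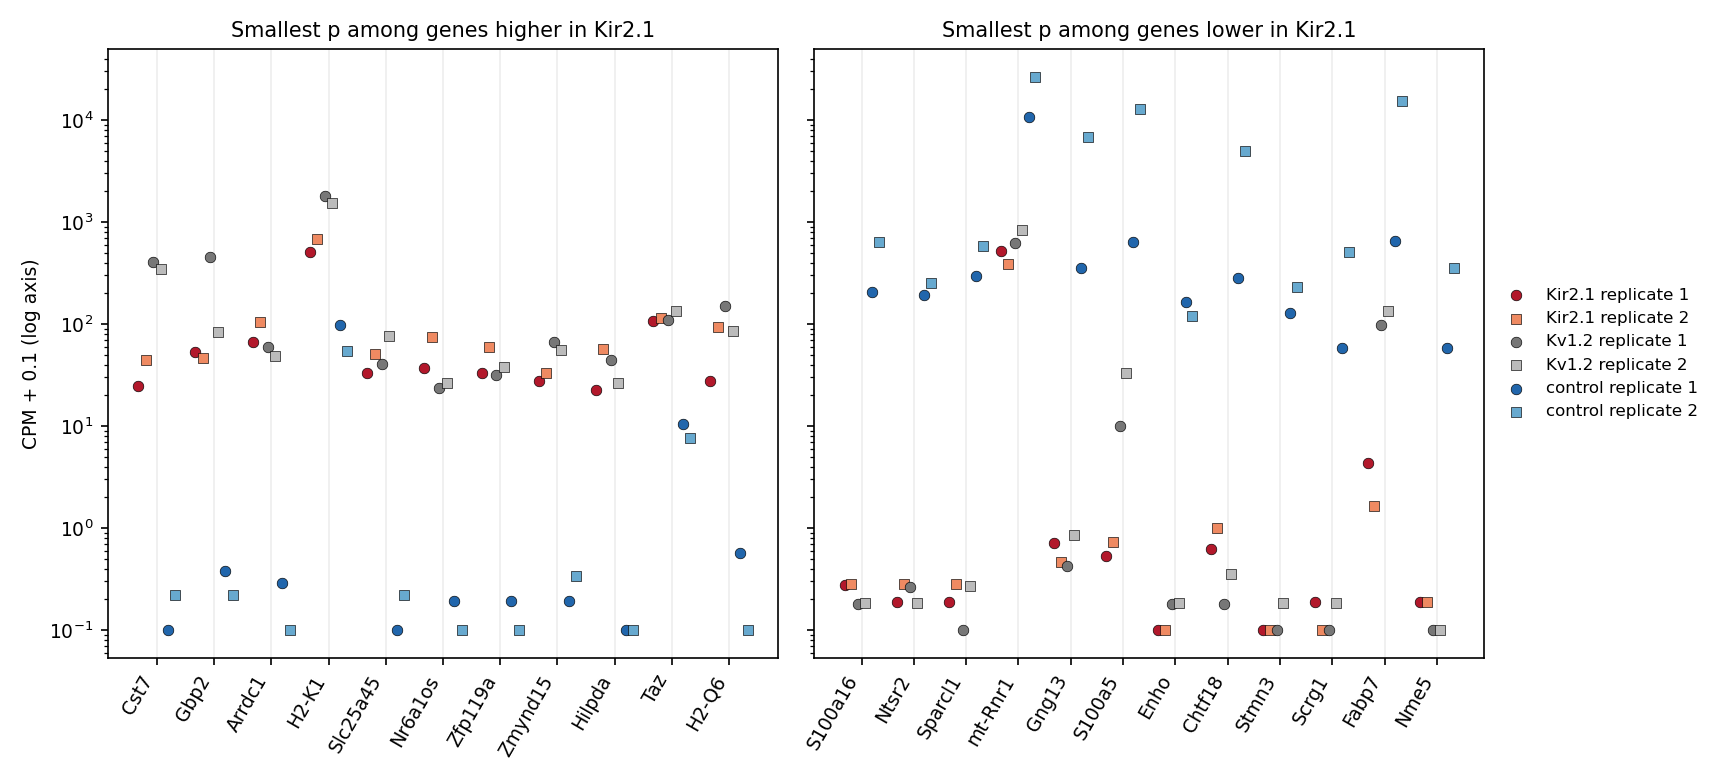
CPM plus 0.1 on a log axis (y axis) of genes higher (left) and lower (right) in both Kir2.1-labelled libraries, from the 12 per direction with the smallest p, with a point for each of the 6 libraries (circles replicate 1, squares replicate 2). Red and orange points (Kir2.1-labelled) lie above both blue points (control) on the left and below both on the right, which is how the genes were chosen, and the grey Kv1.2 libraries had no part in that choice but share the control libraries.

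Genes of MHC class I presentation were measured at 9 members, of which 5 were higher in both Kir2.1-labelled libraries and 0 lower, with 2 at an unadjusted p under 0.05. All 9 fitted folds were above 0, with a median of 1.79 against 0.07 for all genes. Besides H2-K1, the nonclassical H2-T23 had 134 and 118 CPM in the Kir2.1-labelled libraries against 30.6 and 20.7 CPM in the control libraries (log2 fold change 2.29, standard error 0.61). B2m, the shared light chain, had 7897 and 17871 CPM against 9600.02 and 1626 CPM, and its groups overlapped, as control replicate 1 lay above Kir2.1 replicate 1. Psmb9, a catalytic subunit of the immunoproteasome, had 157 and 166 CPM against 21.4 and 0.118 CPM, and Tap1, a subunit of the peptide transporter, had 52.3 and 15.2 CPM against 5.63 and 1.89 CPM. Psmb9 and Tap1 share exon bases with each other, so their levels are not separate measurements. Without control replicate 2, the library with the low microglia signal, the median was 1.93.

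MHC class II presentation was also measured at 9 members, with 4 higher in both Kir2.1-labelled libraries, 0 lower, 2 at an unadjusted p under 0.05 and a median log2 fold change of 1.93. Cd74, the invariant chain that guides class II molecules to the endosome, had 46.1 and 107 CPM in the Kir2.1-labelled libraries and 9.001 and 3.07 CPM in the control libraries (log2 fold change 3.66, standard error 1.003). H2-Aa, a class II alpha chain, had 153 and 401 CPM against 1.13 and 15.97 CPM (log2 fold change 5.02, standard error 1.39). In the Kv1.2 libraries Cd74 stood at 2329 and 519.8 CPM and H2-Aa at 8124 and 2355 CPM. The direct comparison of Kir2.1-labelled with Kv1.2 libraries put Cd74 at a log2 fold change of -4.22 (standard error 1.03). For H2-Aa it was -4.24 (standard error 1.33), again without an adjusted p under 0.05. Without control replicate 2 the class II median dropped to 1.014, and without Kir2.1 replicate 2 it was 1.21.

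The promoters of H2-K1 and H2-Aa are shown because H2-K1 had the smallest p of the class I members and H2-Aa that of the class II members with a promoter in the table, and both carry an inverted CCAAT box, the Y box of class II promoters, which in mice and humans is bound by NF-Y. Each sequence is the 250 bases before the transcription start in the RefSeq table for GRCm38.p6, read 5′ to 3′ on the strand of the gene, with the inverted CCAAT box (ATTGG) in capitals. The H2-K1 window is chr17:34000348-34000597 on the minus strand, and that of H2-Aa is chr17:34287824-34288073 on the minus strand.
H2-K1: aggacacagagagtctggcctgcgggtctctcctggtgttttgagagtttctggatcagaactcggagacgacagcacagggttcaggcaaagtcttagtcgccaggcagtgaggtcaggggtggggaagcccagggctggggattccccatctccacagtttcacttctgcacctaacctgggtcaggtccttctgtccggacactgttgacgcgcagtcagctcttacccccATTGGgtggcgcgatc
H2-Aa: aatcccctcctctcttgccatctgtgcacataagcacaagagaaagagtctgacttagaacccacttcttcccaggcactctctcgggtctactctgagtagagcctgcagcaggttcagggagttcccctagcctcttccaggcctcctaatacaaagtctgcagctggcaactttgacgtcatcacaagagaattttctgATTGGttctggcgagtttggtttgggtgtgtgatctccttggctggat
The box lies 16 bases upstream of the start of H2-K1 and 48 bases upstream of that of H2-Aa. Searched on both strands, CCAAT occurred in 34.5% of the 27025 mouse promoters of this length and in 7 of the 8 class I members with a promoter (B2m, H2-D1, H2-K1, H2-T23, Psmb9, Tap1 and Tapbp). Psmb9 and Tap1 share exon bases, and whether their promoter windows overlap was not tested, so they may not be separate matches. Only 7 of the 9 class II members had a promoter, so a share for class II is void. A match is a description of letters and not of a bound site.

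Microglia markers stood higher on the list as a whole, with fitted folds above 0 at all 10 members and a median of 1.42. Of these, 4 were higher in both Kir2.1-labelled libraries, 0 were lower and 2 had an unadjusted p under 0.05. Tmem119, a membrane protein of homeostatic microglia, had 426 and 277 CPM in the Kir2.1-labelled and 129 and 29.7 CPM in the control libraries (log2 fold change 2.14, standard error 0.82). Fcrls, an Fc receptor-like scavenger receptor of mouse microglia, had 665 and 722 CPM against 309 and 66.1 CPM (log2 fold change 1.88, standard error 0.79). P2ry12, the ADP receptor that steers microglial processes, had 5081 and 13104 CPM against 5464 and 494 CPM, and its groups overlapped. The median shrank to 0.47 without control replicate 2 and was 3.34 without control replicate 1, when 9 of 10 members had an unadjusted p under 0.05. The size of the microglia difference thus depended on which control library it was set against.

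Other myeloid groups moved with the microglia markers, and their part in each other was not tested. Among Fc receptors 3 of 8 were higher in both libraries and 0 lower, with a median of 1.11, including Fcgrt, the neonatal Fc receptor, at 101 and 49.7 CPM against 2.63 and 15.02 CPM in the control libraries. Among Toll-like receptors 4 of 7 were higher and 0 lower (median 1.596), including Tlr2, a receptor of bacterial lipoproteins, at 36.5 and 100.01 CPM against 5.63 and 0.237 CPM (log2 fold change 4.53, standard error 1.64). Of the NF-kB and inflammatory cytokine genes 5 of 9 were higher and 0 lower (median 2.03), and of the chemokines 4 of 9 were higher and 0 lower (median 1.38), with 0 at an unadjusted p under 0.05 in either list. Without control replicate 2 the medians were 0.14 for Fc receptors, 1.42 for Toll-like receptors, 1.74 for the cytokine genes and 0.50 for chemokines.

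Lysosomal hydrolases and membrane proteins were measured at all 22 listed members, with 9 higher in both Kir2.1-labelled libraries, 0 lower and a median of 1.07, which was 0.32 without control replicate 2. Lamp1, a major lysosomal membrane glycoprotein, had 295 and 838 CPM in the Kir2.1-labelled libraries against 263 and 117 CPM in the control libraries. The E-box letters CACGTG, part of the motif that TFEB binds in lysosomal promoters, occurred in 5 of the 18 members with a promoter (Ctsd, Ctsl, Gaa, Glb1 and Lamp1) and in 6.05% of all promoters. CCAAT occurred in 8 of the 18.

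Of 13 genes induced in activated microglia 2 were higher in both libraries and 2 lower. Their median was -0.35, but 1.84 without control replicate 1, when 5 members had an unadjusted p under 0.05 in the higher direction, and 0.08 without Kir2.1 replicate 1. Clec7a, the receptor dectin-1, had 124 and 304 CPM in the Kir2.1-labelled libraries against 44.2 and 13.7 CPM in the control libraries (log2 fold change 2.88, standard error 0.85). Fabp5, a fatty acid-binding protein, had 0.175 and 0.0899 CPM against 26.8 and 114 CPM, a ratio of 492-fold (95% counting interval 168 to 2390.1) lower, although it was at 28.9 and 30.7 CPM in the Kv1.2 libraries. Of the 13 genes, Fabp5 passed the minimum through the control libraries alone and Cst7 through the Kir2.1-labelled libraries alone. Of the other 11, 1 was higher and 1 lower. Interferon-stimulated genes had 3 of 11 higher, 0 lower and a median of 0.02, whose sign changed under 7 alternatives. Of the 3, 1 passed the minimum through the Kir2.1-labelled libraries alone. Of 9 complement genes 2 were higher and 1 lower in both libraries. C4b, a component of the classical pathway, had 5.42 and 11.1 CPM against 60.8 and 26.96 CPM (log2 fold change -2.404, standard error 0.95), and C3ar1, the receptor for the C3a fragment, had 322 and 727 CPM against 237 and 52.5 CPM (log2 fold change 1.86, standard error 0.84).

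Border-associated macrophages, the macrophages of meninges and perivascular spaces, were marked by 8 genes, of which 5 passed the minimum and 4 were higher in both Kir2.1-labelled libraries. Of these 4, 1 passed through the Kir2.1-labelled libraries alone, so its direction was fixed by the minimum. Cbr2, a carbonyl reductase of these cells, had 163 and 6.11 CPM in the Kir2.1-labelled libraries and 0 counts in the control and Kv1.2 libraries, which makes it at least 545-fold higher than in the control libraries. Pf4, a platelet-type chemokine also made by these macrophages, had 361 and 57.9 CPM against 19.8 and 7.33 CPM. The signal lay mostly in replicate 1, where the list summed to 1859 CPM against 291 CPM in replicate 2. Mrc1, the mannose receptor, had 517 and 0 CPM in the Kir2.1-labelled libraries, so replicate 2 held 0 counts of it, and 1.5 and 13.4 CPM in the control libraries. Markers of monocytes and of T and NK cells did not pass the minimum at any listed gene, with sums of at most 2.71 CPM in the Kir2.1-labelled libraries.

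**Figure D3:**
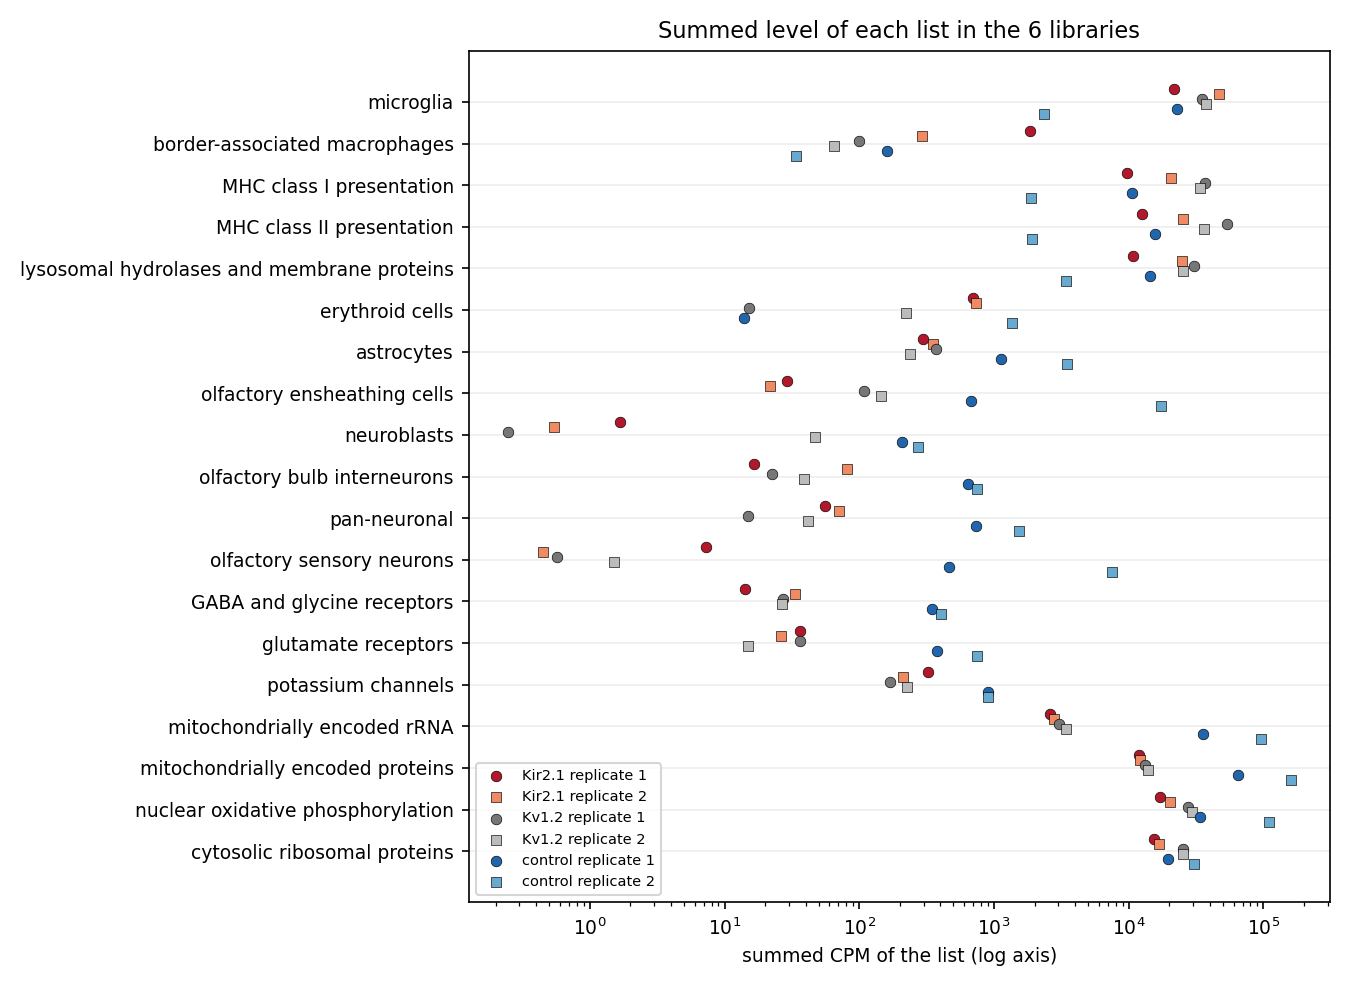
Summed CPM of all listed members (x axis, log scale) for 19 gene lists (y axis) in each of the 6 libraries, with circles for replicate 1 and squares for replicate 2. The Kir2.1-labelled (red and orange) and Kv1.2 (grey) libraries lie left of the control libraries (blue) for neuronal, astrocyte and mitochondrially encoded lists, while control replicate 2 lies left of the other 5 libraries for the microglia, MHC and lysosomal lists.

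The 12 genes with the smallest p among those lower in both Kir2.1-labelled libraries included Ntsr2 and Sparcl1 of astrocytes, S100a5 and Gng13 of olfactory sensory neurons and the mitochondrial rRNA gene mt-Rnr1. Of the 12, all but mt-Rnr1 and Fabp7 were under 1 CPM in both Kir2.1-labelled libraries. These passed the minimum through the control libraries alone, so they could only be lower. S100a16, a calcium-binding protein, had 0.175 and 0.1797 CPM in the Kir2.1-labelled libraries against 206 and 633 CPM in the control libraries (log2 fold change -11.12, standard error 1.16, unadjusted p = 2.67e-05, adjusted p = 0.293 in edgeR's quasi-likelihood test). Ntsr2, a neurotensin receptor of astrocytes, had 0.0874 and 0.1797 CPM against 192 and 255 CPM, a ratio of 1656-fold (95% counting interval 566 to 8032) lower. Sparcl1, a synaptogenic matricellular protein that astrocytes secrete, had 0.0874 and 0.1797 CPM against 298 and 582 CPM, a ratio of 3188-fold (95% counting interval 1090.5 to 15462) lower. In each of these 3 genes the Kir2.1-labelled libraries held at most 2 counts apiece. Fabp7, the fatty acid-binding protein of radial glia, astrocytes and olfactory ensheathing cells, had 4.28 and 1.53 CPM against 656 and 15391 CPM (log2 fold change -11.43, standard error 1.896), and it took 97.7 and 134 CPM in the Kv1.2 libraries. S100a5, a calcium-binding protein of olfactory sensory neurons, had 0.437 and 0.629 CPM against 643 and 12821 CPM, so the control libraries themselves lay far apart. Enho, which encodes the secreted peptide adropin, and Stmn3, a neuronal microtubule regulator, were at 0 counts in both Kir2.1-labelled libraries. Enho stood at 164 and 120.2 CPM and Stmn3 at 127 and 231 CPM in the control libraries, which makes them at least 1086-fold and at least 1302-fold lower. Scrg1 had 0.0874 and 0 CPM against 58.03 and 508 CPM, and Nme5, a gene of ciliated cells, had 0.0874 and 0.0899 CPM against 57.8 and 355 CPM.

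Astrocyte markers passed the minimum at 10 of 11 listed members, of which 9 were lower in both Kir2.1-labelled libraries and 0 were higher. Of the 10, 5 were under 1 CPM in both Kir2.1-labelled libraries and passed through the control libraries alone, so they could only be lower. Of the other 5, 4 were lower. The list summed to 299 and 355 CPM in the Kir2.1-labelled libraries and 1121 and 3480.3 CPM in the control libraries. Slc1a2, the glutamate transporter GLT-1, had 0.3496 and 0.359 CPM in the Kir2.1-labelled libraries against 96.6 and 511 CPM in the control libraries (log2 fold change -9.699, standard error 2.32). S100b had 0.262 and 6.29 CPM against 173 and 1037 CPM (log2 fold change -7.53, standard error 2.43), and the intermediate filament gene Gfap had 0.3496 and 0.449 CPM against 60.9 and 9.698 CPM. The glutamate transporter Slc1a3 stood at 283 and 283 CPM against 319.7 and 438 CPM. It differed far less than the other members, though its groups did not overlap.

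Genes of the neuronal lineage were low in the Kir2.1-labelled libraries, but the count minimum fixed the direction of many of them. All 5 neuroblast markers that passed it, of 12 listed, were under 1 CPM in both Kir2.1-labelled libraries and passed through the control libraries alone, so they could only be lower. Of 11 interneuron markers of the olfactory bulb 7 passed, 2 of them through the control libraries alone, and the other 5 were lower in both Kir2.1-labelled libraries as well. Of 10 pan-neuronal genes 9 passed, 5 of them through the control libraries alone, and 2 of the other 4 were lower. The pan-neuronal list summed to 55.8 and 70.3 CPM in the Kir2.1-labelled libraries and 738 and 1545 CPM in the control libraries. Dcx, the microtubule-associated protein of migrating neuroblasts, had 0 counts in both Kir2.1-labelled libraries against 77.9 and 19.04 CPM in the control libraries, at least 390.3-fold lower. Dlx6os1, a long noncoding RNA of the Dlx locus, had 0.0874 and 0.0899 CPM against 46.97 and 16.7 CPM. Nrxn3, a presynaptic adhesion protein, had 0.262 and 0.449 CPM against 78.4 and 102 CPM (log2 fold change -7.94, standard error 2.27). Of the interneuron genes, Gad1, which makes GABA from glutamate, had 10.7 and 0.539 CPM against 133 and 153 CPM (log2 fold change -4.67, standard error 1.69). Synpr, a synaptic vesicle protein, had 0.0874 and 0.0899 CPM against 14.3 and 86.5 CPM, and Calb2, calretinin, had 0.262 and 0 CPM against 40.03 and 24.1 CPM. Gad2, Pcp4, Meis2 and Tshz1 were detected in Kir2.1 replicate 2, at 22.7, 20.7, 17.8 and 18.4 CPM, and less in replicate 1, at 0.262, 0.262, 4.28 and 0.437 CPM. These 4 were chosen after their values were seen, as the interneuron markers that replicate 2 retained.

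Olfactory sensory neurons, whose axons end in the bulb but whose cell bodies lie in the nose, were marked by 5 genes, of which 4 passed the minimum, 3 of them through the control libraries alone. Gng13, a G protein subunit of these neurons, had 0.612 and 0.359 CPM in the Kir2.1-labelled libraries against 356 and 6843 CPM in the control libraries. Chtf18, beside it on chromosome 17, shares exon bases with Gng13 and had 0.524 and 0.899 CPM against 281 and 4915 CPM, so the 2 genes cannot be separated. Omp, olfactory marker protein, had 0.0874 and 0.0899 CPM against 3.94 and 190.4 CPM, and Stoml3, a stomatin of sensory neurons, had 0.262 and 0 CPM against 92.2 and 500.5 CPM. These genes were high mainly in control replicate 2, where the list summed to 7539 CPM against 467 CPM in control replicate 1.

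Mitochondrially encoded genes were lower in the Kir2.1-labelled libraries at all 13 proteins and both rRNAs. Of the 13, 10 had an unadjusted p under 0.05, and the median was -3.14. The small rRNA mt-Rnr1 had 522 and 389.7 CPM in the Kir2.1-labelled libraries against 10709 and 26467 CPM in the control libraries (log2 fold change -5.35, standard error 0.77), and the large rRNA mt-Rnr2 had 2091 and 2378 CPM against 25148 and 69929 CPM (log2 fold change -4.41, standard error 0.79). Among the proteins, mt-Co1, the catalytic subunit of cytochrome c oxidase, had 1805 and 2256 CPM against 13162 and 38424 CPM (log2 fold change -3.67, standard error 0.75), and mt-Cytb, the mitochondrial subunit of complex III, had 4321 and 5038 CPM against 24070.5 and 58599 CPM (log2 fold change -3.14, standard error 0.72). mt-Nd5, a subunit of complex I, had 623 and 512 CPM against 3991 and 9279.6 CPM (log2 fold change -3.55, standard error 0.67). At each of these genes the Kir2.1-labelled libraries lay close together and control replicate 2 lay above control replicate 1. The median was -2.47 without control replicate 2 and -3.79 without control replicate 1.

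Nuclear genes of oxidative phosphorylation were lower as well, with 53 of 78 below both control libraries, 2 above and 37 at an unadjusted p under 0.05 in the lower direction (median -1.65). Cox8a had 394 and 464 CPM in the Kir2.1-labelled libraries against 1675 and 5159 CPM in the control libraries (log2 fold change -2.99, standard error 0.698). Cox6c, like Cox8a a structural subunit of cytochrome c oxidase, had 412 and 371 CPM against 1419.7 and 5023 CPM (log2 fold change -3.04, standard error 0.73), and Cox7b had 217 and 195 CPM against 665 and 1684 CPM (log2 fold change -2.51, standard error 0.65). Ndufs6, a subunit of complex I, had 102 and 65.95 CPM against 296 and 1092 CPM (log2 fold change -3.04, standard error 0.79). Without control replicate 2 the median was -0.77. Cytosolic ribosomal proteins were lower at 38 of 80 members and higher at 3 (median -0.55), with 5 at an unadjusted p under 0.05, among them Rpl31 at 150.4 and 86.98 CPM against 237 and 707 CPM. The neuronal, astrocyte and mitochondrial groups moved together across the libraries, and the part of the neuronal and glial markers in the mitochondrial levels was not tested.

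Ion channels and neurotransmitter receptors were mostly under the minimum. Potassium channel genes passed it at 26 of 99 listed members, 14 of them through the control libraries alone, which could only be lower, and 1 through the Kir2.1-labelled libraries alone, which could only be higher. Of the other 11, 3 were lower in both Kir2.1-labelled libraries and 1 was higher. Pan-neuronal and astrocyte markers were lower in the same libraries, with the sums given above, and their part in the channel and receptor levels was not tested. Kcnh7, an Erg-type channel, had 0.175 and 0.1797 CPM in the Kir2.1-labelled libraries against 98.8 and 54.5 CPM in the control libraries (log2 fold change -8.67, standard error 1.83). Kcnd2, the A-type channel Kv4.2, had 0.3496 and 0.0899 CPM against 72.2 and 63.2 CPM (log2 fold change -8.19, standard error 2.21). Kcnip3, its accessory subunit and calcium sensor, had 0.175 and 0.0899 CPM against 96.6 and 12.3 CPM, a ratio of 446-fold (95% counting interval 152 to 2167) lower, and Kcnip3 was at 15.8 and 50.8 CPM in the Kv1.2 libraries. The A-type paralog Kcnd1 showed the opposite pattern, with 33.04 and 35.9 CPM in the Kir2.1-labelled libraries and 0 counts in all 4 other libraries, at least 219.7-fold higher than in the control libraries. Kcnk13, a tandem pore-domain channel of microglia, was the other member higher in both libraries, at 97.6 and 24.98 CPM against 6.75 and 5.44 CPM. The inward rectifier Kcnj16 had 0 and 0.1797 CPM against 40.5 and 33.6 CPM, and Kcnj10, the Kir4.1 channel of astrocytes, had 38.7 and 0 CPM against 19.9 and 135 CPM, with overlapping groups. Kcnk13, Kcnj16 and Kcnj10 were chosen after their values were seen.

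GABA and glycine receptor genes passed the minimum at 10 of 26 listed members, 8 of them through the control libraries alone, and 1 of the other 2 was lower. Glutamate receptors passed at 14 of 28, 6 of them through the control libraries alone, and of the other 8, 4 were lower and 0 higher. The AMPA receptor subunit Gria1 had 0.262 and 0.359 CPM in the Kir2.1-labelled libraries against 41.9 and 80.4 CPM in the control libraries (log2 fold change -7.57, standard error 2.16), and the metabotropic receptor Grm5 had 0.175 and 0.1797 CPM against 27.8 and 49.1 CPM (log2 fold change -7.67, standard error 2.26). Sodium and calcium channels passed at 16 of 40, 7 through the control libraries alone and 1 through the Kir2.1-labelled libraries alone, and of the other 8, 2 were lower and 0 higher. Their median was -4.86, but 0.12 over the 6 members fitted without control replicate 2, with 0 at an unadjusted p under 0.05 there. Cacng4, an auxiliary subunit, had 0 counts in both Kir2.1-labelled libraries against 12.1 and 25.2 CPM in the control libraries. Protocadherins, adhesion proteins of neurons, passed at 7 of 69, 4 of them through the control libraries alone and 1 through the Kir2.1-labelled libraries alone, among them Pcdh7 at 0.262 and 0.1797 CPM against 26.8 and 41.3 CPM. Dlg2, the scaffold PSD-93 that clusters potassium channels and glutamate receptors, had 0.524 and 0.1797 CPM against 40.03 and 841 CPM. Ntrk2, the BDNF receptor, had 0.787 and 0.0899 CPM against 72.2 and 89.5 CPM (log2 fold change -7.49, standard error 1.93).

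The sodium pump and chloride transporters, which set the gradients that potassium channels act on, divided, with 2 of 11 higher and 6 lower. Of the 6, 2 passed the minimum through the control libraries alone, Fxyd1 among them. Of the other 9 members 2 were higher and 4 lower. Atp1b3, a beta subunit that microglia express, had 273 and 427 CPM in the Kir2.1-labelled libraries against 54.2 and 57.5 CPM in the control libraries (log2 fold change 2.65, standard error 0.68), and the control replicates agreed closely. Slc12a2, the chloride importer NKCC1, had 264 and 114 CPM against 52.03 and 18.3 CPM (log2 fold change 2.43, standard error 0.92). The pump regulator Fxyd1 had 0.262 and 0.1797 CPM against 29.2 and 1323 CPM. The neuronal chloride exporter Slc12a5 had 0.699 and 6.92 CPM against 0.188 and 91.2 CPM, with overlapping groups.

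Other pathways showed smaller or divided differences. Immediate early genes, transcription factors induced by activity, had 4 of 10 higher and 3 lower in both libraries (median 0.04, a sign that changed under 10 alternatives). Klf6 had 42.4 and 45.1 CPM in the Kir2.1-labelled libraries against 8.53 and 9.82 CPM in the control libraries (log2 fold change 2.25, standard error 0.85), and Klf2 had 1.57 and 13.1 CPM against 0 counts in the control and Kv1.2 libraries. Klf2 passed the minimum through the Kir2.1-labelled libraries alone, so it could only be higher. Of the other 9 immediate early genes 3 were higher and 3 lower. The unfolded protein response had 5 of 10 higher and 0 lower, including the disulfide isomerase Pdia4 at 24.7 and 86.7 CPM against 7.5 and 7.096 CPM (log2 fold change 2.93, standard error 1.12). Heat shock proteins had 1 of 8 higher and 2 lower, and 1 of the 2 passed the minimum through the control libraries alone. The cytosolic chaperone Hsp90aa1 had 58.03 and 51.9 CPM against 297 and 477 CPM (log2 fold change -2.82, standard error 0.74). Its groups were well apart.

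Apoptosis effectors and the BCL2 family had 4 of 11 higher and 1 lower, with 0 at an unadjusted p under 0.05 and a median of 0.82, which was 0.17 without control replicate 2. Glycolysis genes had 1 of 15 higher and 4 lower, and the lower ones included the neuronal forms Eno2, at 0 counts in both Kir2.1-labelled libraries against 46.2 and 62.6 CPM in the control libraries, and Slc2a3, the glucose transporter GLUT3, at 0.175 and 0.1797 CPM against 36.4 and 14.2 CPM. Eno2 and Slc2a3 passed the minimum through the control libraries alone, so they could only be lower. Of the other 13 glycolysis genes 1 was higher and 2 lower. Iron handling genes had 3 of 9 higher and 1 lower. The lower one, Tfrc, passed the minimum through the control libraries alone, so it could only be lower. The iron exporter Slc40a1, ferroportin, had 173 and 229 CPM against 60.004 and 21.2 CPM (log2 fold change 2.31, standard error 0.79), and the transferrin receptor Tfrc had 0.0874 and 0.2696 CPM against 13.9 and 9.22 CPM (log2 fold change -5.93, standard error 2.26). Proteasome genes had 6 of 37 higher and 10 lower, and 1 of the 10 passed the minimum through the control libraries alone. The core subunit Psma1 had 516 and 467 CPM against 175 and 149 CPM (log2 fold change 1.602, standard error 0.52), and the regulatory subunit Psmd6 had 115 and 202 CPM against 43.1 and 44.8 CPM (log2 fold change 1.85, standard error 0.68), while the regulatory subunit Psmd2 had 2.097 and 4.76 CPM against 84.3 and 34.3 CPM (log2 fold change -4.11, standard error 1.28). Of the large families, 52 of 192 zinc finger genes were higher and 30 lower (median 0.58). Of the 192, 14 passed the minimum through the Kir2.1-labelled libraries alone and 14 through the control libraries alone. Of the other 164, 38 were higher and 16 lower. Of 156 solute carriers 34 were higher and 34 lower. Their median of 0.31 was -0.06 without Kir2.1 replicate 1 and -0.28 without Kir2.1 replicate 2. Among the 156, 6 passed the minimum through the Kir2.1-labelled libraries alone and 19 through the control libraries alone. Of the other 131, 28 were higher and 15 lower. Of 30 SR and hnRNP splicing factors 7 were higher and 1 lower (median 0.37).

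Detection differed between the libraries as well as level. Of the 10978 genes, 5129 reached 1 CPM in all 4 libraries. A further 442 reached it in both Kir2.1-labelled libraries and neither control library, and 976 in both control libraries and neither Kir2.1-labelled library. These genes passed the minimum only through the group where they were high. The 4 combinations of 1 Kir2.1-labelled and 1 control library held 808, 370, 309 and 175 genes. The 442 lay within that range and the 976 above it. At a stricter rule, on CPM of the scaled library, 151 genes had at least 10 CPM in both Kir2.1-labelled libraries and under 1 CPM in both control libraries, of which 129 were protein coding. The opposite pattern was found at 424 genes, 385 of them protein coding, including Acbd7, an acyl-CoA-binding domain protein, at 0 counts in both Kir2.1-labelled libraries against 68.2 and 1798 CPM in the control libraries, and Cpe, the neuropeptide-processing enzyme carboxypeptidase E, at 0.437 and 0.1797 CPM against 397 and 1115 CPM. Of the 424 genes under 1 CPM in both Kir2.1-labelled libraries, 45 had 0 counts in both. Among the 424, 273 were under 1 CPM in both Kv1.2 libraries as well and 33 had at least 10 CPM in both. Of the 151 genes with at least 10 CPM in both Kir2.1-labelled libraries, 44 were under 1 CPM in both Kv1.2 libraries and 31 had at least 10 CPM in both. Kir2.1 and Kv1.2 were compared with the same control libraries, so these counts are not independent of each other.

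**Figure D4:**
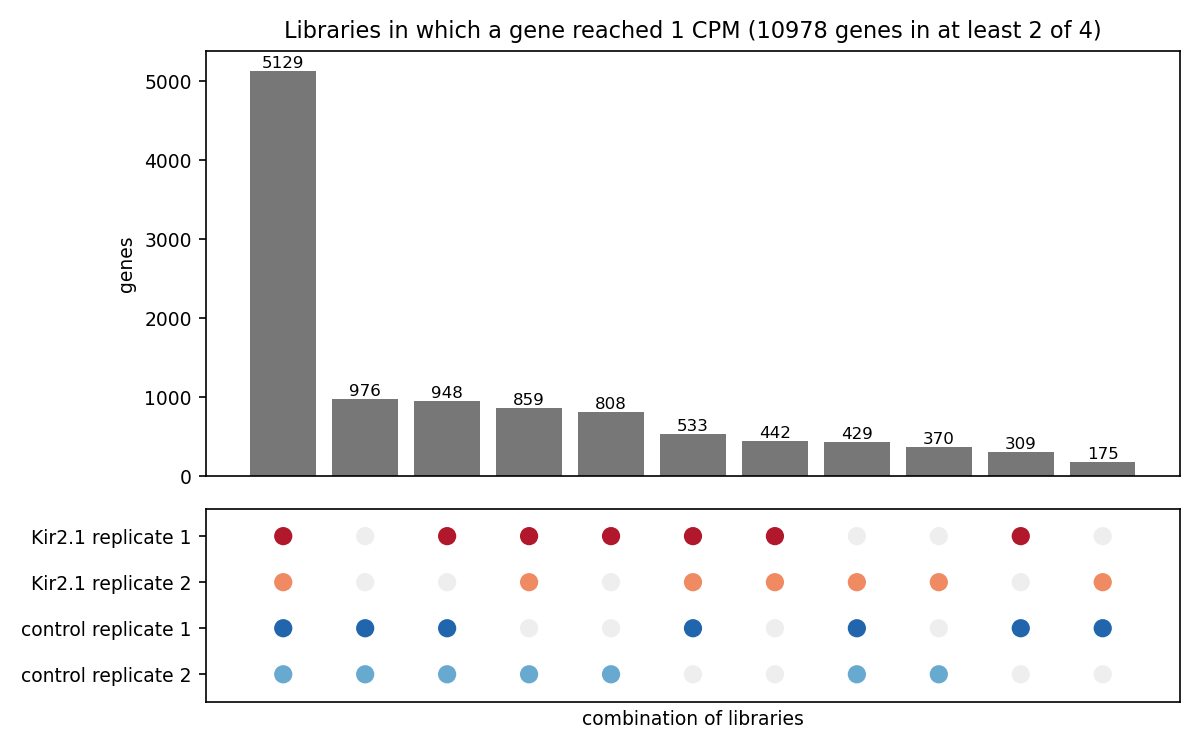
Number of genes (bars, y axis) for each combination of the 4 libraries in which a gene reached 1 CPM, with filled dots under each bar marking the libraries of that combination. The bar for all 4 libraries holds 5129 genes, the bar for both control libraries alone 976 and the bar for both Kir2.1-labelled libraries alone 442.

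Fewer genes separated the Kir2.1-labelled libraries from both other groups. Of the 10978 genes, both Kir2.1-labelled libraries lay above all 4 other libraries at 1041 and below all 4 at 768. Of these, 101 and 103 had an unadjusted p under 0.05 against each of the other groups. The numbers expected by chance were not worked out, so the 1041 and the 768 alone do not show a difference between the groups. The minimum left out genes found in the Kv1.2 libraries alone, so these counts cannot be weighed against each other. In all, 44 genes (34 protein coding) had at least 10 CPM in both Kir2.1-labelled libraries and under 1 CPM in the other 4. They included Ms4a4a, a tetraspanning membrane protein of macrophages, at 87.05 and 40.4 CPM and 0 counts in the other 4 libraries, at least 408-fold higher than in the control libraries. Dhcr7, the last enzyme of cholesterol synthesis, had 14.4 and 10.1 CPM in the Kir2.1-labelled libraries, 0.0818 and 0 CPM in the Kv1.2 libraries and 0 and 0.118 CPM in the control libraries. Further members, chosen after their values were seen, were Smarcd2, a chromatin remodeller subunit, at 56.6 and 44.9 CPM, Xpc, a DNA damage sensor, at 17.1 and 32.9 CPM, Tgfbi, a matrix protein induced by TGF-beta, at 24.4 and 30.4 CPM, and Cblb, an E3 ubiquitin ligase, at 13.2 and 31.00 CPM, each under 1 CPM in the 4 other libraries. The 33 genes under 1 CPM in both Kir2.1-labelled libraries and at 10 CPM or more in the other 4 (31 protein coding) included Fabp5, Kcnip3 and Psmd9. Psmd9, an assembly chaperone of the proteasome, had 0.175 and 0.2696 CPM in the Kir2.1-labelled libraries, 27.8 and 26.1 CPM in the Kv1.2 libraries and 37.97 and 24.1 CPM in the control libraries. Rab29, a small GTPase of the lysosome that activates LRRK2, had 0 counts in both Kir2.1-labelled libraries, 41.4 and 119.8 CPM in the Kv1.2 libraries and 33.00 and 27.4 CPM in the control libraries, at least 229.8-fold lower than in the control libraries. Tefm, the elongation factor of mitochondrial transcription, had 0 and 0.0899 CPM, 124 and 70.2 CPM in the Kv1.2 libraries and 69.4 and 14.7 CPM in the control libraries. Galt, an enzyme of galactose metabolism that shares exon bases with a neighbouring gene, had 0.437 and 0.1797 CPM, 105 and 129.5 CPM in the Kv1.2 libraries and 30.3 and 30.6 CPM in the control libraries.

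The direct test of Kir2.1-labelled against Kv1.2 libraries, which does not use the control libraries for its means, called 0 genes at an adjusted p under 0.05 in edgeR's quasi-likelihood test (0.0%, smallest adjusted p = 0.728). At an unadjusted p under 0.05, 548 genes were higher (4.99%) and 166 lower (1.51%). The genes were those that passed the minimum over the Kir2.1-labelled and control libraries. A gene found in the Kv1.2 libraries alone was thus left out, while one found in the Kir2.1-labelled libraries alone was kept. The 548 and the 166 therefore cannot be weighed against each other, and another minimum was not tested for this comparison. DESeq2 called 508 genes at an adjusted p under 0.05 and the likelihood ratio test 77. Without Kir2.1 replicate 1 the unadjusted calls were 352 higher and 248 lower. Genes under 1 CPM in the Kv1.2 libraries led the higher side. Acadm, the medium-chain acyl-CoA dehydrogenase, had 71.5 and 45.4 CPM in the Kir2.1-labelled libraries, 0.0818 and 0 CPM in the Kv1.2 libraries and 75.3 and 68.00 CPM in the control libraries. Top2b, a topoisomerase of postmitotic cells, had 56.3 and 43.9 CPM, 0.0818 and 0 CPM in the Kv1.2 libraries and 50.1 and 35.1 CPM in the control libraries, and Mib1, the ubiquitin ligase that activates Notch ligands, had 88.1 and 52.5 CPM, 0.327 and 0.0845 CPM in the Kv1.2 libraries and 49.1 and 104 CPM in the control libraries. At these genes the Kir2.1-labelled and control libraries overlapped or lay close together. On the lower side were genes high in the Kv1.2 libraries. Il18bp, the decoy of interleukin-18, had 3.67 and 5.75 CPM in the Kir2.1-labelled libraries, 771 and 329.7 CPM in the Kv1.2 libraries and 14.4 and 15.1 CPM in the control libraries, and the interferon-inducible surface protein Ly6a had 22.6 and 59.3 CPM, 1028 and 766 CPM in the Kv1.2 libraries and 39.4 and 20.6 CPM in the control libraries. T and NK cell markers summed to 2.71 and 0.90 CPM in the Kir2.1-labelled libraries against 542 and 104 CPM in the Kv1.2 libraries. Their part in the levels of interferon-inducible and class II genes was not tested.

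The spread between replicates was large in both groups. Across the 10978 genes, log2 CPM of the Kir2.1-labelled libraries correlated with Pearson's r = 0.58, that of the control libraries with r = 0.49 and that of the Kv1.2 libraries with r = 0.68, while pairs of a Kir2.1-labelled and a control library had r between 0.32 and 0.43. These correlations are across genes, which are not independent replicates. Of 7625 genes at 10 CPM or more in either Kir2.1-labelled library, 1607 (21.1%) were under 1 CPM in the other, and of 7844 such genes in the control libraries 1434 (18.3%) were. The share dropped with level, being 40.02% for genes whose higher Kir2.1-labelled library had 10 to 30 CPM, 17.7% at 30 to 100 CPM, 1.75% at 100 to 300 CPM and 1 gene of 495 above that. The genes given above at 0 or 1 count in a library stand beside this share.

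**Figure D5:**
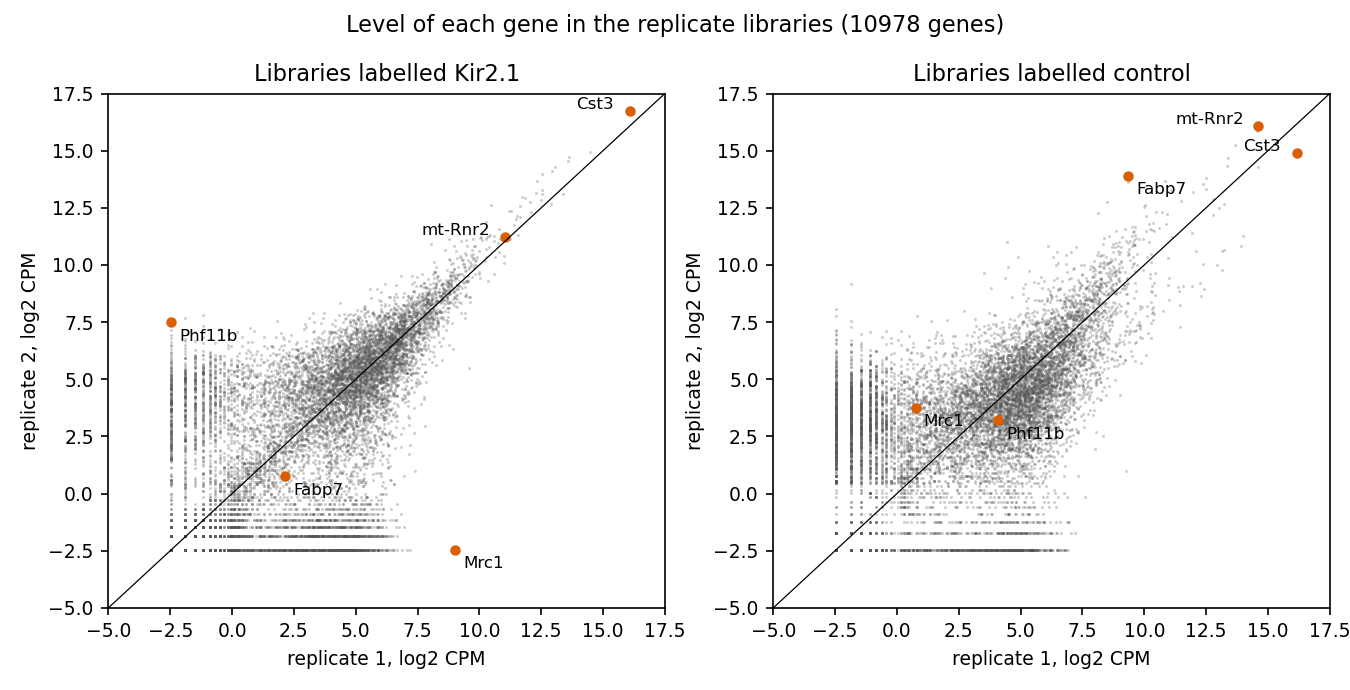
Log2 CPM of each of the 10978 genes in replicate 2 (y axis) against replicate 1 (x axis), for the Kir2.1-labelled (left) and the control libraries (right), with the line of equality and named genes marked in orange. Genes on the lowest level of an axis had 0 counts in that library, and Mrc1 and Phf11b were each found in a single Kir2.1-labelled library, whereas Cst3 and mt-Rnr2 lie near the line there.

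The genes that differed most between the Kir2.1-labelled replicates were found well above the detection limit in a single library. Mrc1 (517 and 0 CPM), the chemokine Ccl7 (145 and 0 CPM), Lsm14a, a protein of P-bodies (117 and 0 CPM), and the ubiquitin ligase Rnf111 (100.3 and 0 CPM) were at 0 counts in replicate 2. Phf11b (0 and 179 CPM), the fatty acid receptor Gpr84 (0 and 143 CPM), Pno1, a factor of ribosome assembly (0 and 113 CPM), and the kinase Cdk5 (0 and 99.6 CPM) were at 0 counts in replicate 1. Replicate 1 had the flatter distribution, with 281 genes needed to reach the middle of its count total against 121 genes in replicate 2. It also had 28028 genes with at least 1 count, the most of the 6 libraries, against 20434 in replicate 2. Protein-coding genes took 89.5% and 91.8% of counts in the Kir2.1-labelled libraries and 81.1% and 69.0% in the control libraries, a difference that shrank to 91.2% and 93.2% against 91.0% and 89.6% when mitochondrially encoded genes were left out of the total.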

How the data were processed

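RNA from FACS-sorted cells (at least 3000 per library) was amplified with SMART-Seq v4 over 17 cycles, and libraries were made with Nextera XT from 150 pg cDNA over 12 cycles. The authors deposited raw counts per gene, made by trimming with SeqPurge, aligning to GRCm38 with STAR 2.7.0f and counting with Subread 1.6.4. Strand was not used here. Their tables of FPKM, TPM and of their own comparisons (log2 fold changes, p-values and FDR) were not used.

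Genes at 1 CPM of the unscaled library in at least 2 of the 4 libraries were tested with edgeR 4.0.16 (R 4.3.3): TMM scaling, glmQLFit over all 6 libraries with group as the only term, and Benjamini-Hochberg adjustment over 10978 genes. Levels are CPM per TMM-scaled library, and log2 CPM used a prior count of 2. Standard errors restate the test. A group at 0 counts was set to a floor of 3, summed over its libraries, so its folds are lower bounds. Folds on 1 to 3 counts are ratios with 95% exact counting intervals, which cover counting error only. PCR copies were not marked by molecular identifiers.

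The members and gene lists were chosen with earlier results of these data known. Named genes were the 12 per direction with the smallest p and no overlap between groups, 8 per direction by CPM difference, 8 per direction found in 1 group only, up to 4 per list, the most discordant between replicates (6 per direction) and 5 per direction against Kv1.2. Some genes that these rules select are not reported here. All other genes named, list members included, were chosen after their values were seen. The groups come from the labels. Each library pooled 2 mice, so p-values measure the spread between pools. The fit was tested on simulated data. At an adjusted p under 0.05 it called 13.3% of genes changed 16-fold, 36.7% at 64-fold, 62.7% at 256-fold and 79.3% at 1024-fold. Over 3 simulations it also called 14 unchanged genes. Many large changes could thus be missed. In the simulated counts the control and Kv1.2 libraries shared 1 mean at every gene, unlike in the data. The shares called there need not hold for the libraries compared. DESeq2 1.42.0, a likelihood ratio test, other scalings, minima, a replicate block and each library left out were the alternatives. The counts of list members with a library left out, the counts of members that passed the minimum through 1 group alone, and the counts of genes without overlap on totals that omit mitochondrially encoded genes, were added after seeing the data.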

Additional observations from a re-analysis of the deposited data

How the results depend on the processing

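No gene passed the adjusted threshold under the other scalings, the minimum over 6 libraries, the minimum of 1 CPM in 3 of 4 libraries, filterByExpr, the replicate block or a fit of the 4 libraries alone, whereas DESeq2 called 907 genes, the likelihood ratio test 432 and the fit with no count minimum 122. Unadjusted calls higher and lower were 409 and 820, against 155 and 295 at 1 CPM in 3 of 4 libraries, 682 and 1173 in DESeq2, 624 and 1174 under the likelihood ratio test, and 972 and 1314 with no minimum, which tested 37566 genes. The replicate numbers did not pair the libraries (correlations of their deviations -0.046, -0.009 and -0.006), and the replicate block gave 265 and 502. With each library left out in turn the calls ranged between 72 and 782 higher and between 139 and 852 lower, with 0 to 7 genes at an adjusted p under 0.05, the 7 being without control replicate 1. Library-size scaling moved the median log2 fold change of all genes to 0.28 and upper-quartile scaling to -0.17. Kcnj2 ranged between -0.71 and 1.57 and changed sign without Kir2.1 replicate 2 (-0.71).

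Against Kv1.2, DESeq2 called 508 genes (unadjusted 1044 and 350), the likelihood ratio test 77 (1112 and 300) and the replicate block 0 (339 and 108), and leaving out a library gave 352 to 425 higher and 141 to 248 lower. The protein-coding share differed by 15.6 percentage points, Kir2.1 minus control, and by 1.89 without mitochondrially encoded genes. Genes without overlap numbered 2199 higher and 2513 lower on that total, and 2587 and 2268 under library-size scaling. The causes were not tested. Among the lists with more than 2 members tested, between 24 and 34 had a median below 0 over the alternatives, against 31 in the fit reported. With 2 libraries a group, depth per gene and the spread between pools limit every single-gene statement.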

Other observations

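Gene groups not described above included mitral, tufted and other glutamatergic neurons, of which 3 of 6 listed members passed the minimum, 2 of them through the control libraries alone, and the third was lower in both Kir2.1-labelled libraries. Actin and Arp2/3 genes had 4 of 15 members higher and 1 lower (median 0.52), and translation initiation factors had 9 of 50 higher and 6 lower (median 0.23). Of the 15, 1 passed the minimum through the Kir2.1-labelled libraries alone. Of the 50, 1 passed through those libraries alone and 2 through the control libraries alone. Cell cycle genes passed the minimum at 5 of 18 members, with 1 higher and 0 lower. Counts over all tested members stand beside backgrounds of 20.9% higher and 22.8% lower over all genes.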
